A study of Mus musculus with 12 samples.

Results

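The genes described here are 45 regulators of chromatin among the 25700 genes of the count table: the subunits of Polycomb repressive complexes 2 and 1, the histone deacetylases, the NuRD and CHD remodellers, the BAF remodeller, and the enzymes that write or oxidize DNA methylation. They were chosen by gene symbol, through the mouse Ensembl identifiers of the table, and all 45 were found and had enough reads to be tested. The cells came from mouse sciatic nerves taken on postnatal day 5 (P5), on the C57bl/6J background. All mice carried a Cre transgene that is active in the Schwann cell lineage, together with a Rosa26 eYFP reporter behind a floxed stop and a DsRed reporter under the beta-actin promoter, so no gate is free of these alleles. The 12 bulk RNA-seq libraries came from 3 sorting gates with 4 libraries each, and every library was made from the cells of 1 mouse. The labels give each library a subject number, from 1 to 4, that recurs in each gate. The allSC gate took all eYFP-positive Schwann cells, the mSC gate those of high side scatter (enriched in myelinating Schwann cells), and the nmSC gate those of low side scatter (enriched in not-myelinating Schwann cells). The gates enrich and do not purify, and each holds 2 samples from males and 2 from females that the labels do not tell apart. The paper reports that the samples of every gate clustered in pairs by sex, and sex was not a term in any fit here.

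Polycomb complex 2 methylates histone H3 at lysine 27 through its catalytic subunit Ezh2 or Ezh1, and Polycomb complex 1, with the ubiquitin ligases Rnf2 and Ring1 and the Cbx readers, binds this mark and ubiquitinates histone H2A. Histone deacetylases remove acetyl groups within corepressor complexes such as NuRD, CHD and BAF ATPases move or evict nucleosomes, Dnmt enzymes methylate cytosine, and Tet enzymes oxidize it. In Schwann cells, Hdac1 and Hdac2 work with Sox10 and Egr2 in myelination, Hdac3 limits myelin growth, Hdac4 represses the negative regulator of myelination Jun, Polycomb complex 2 restrains injury-response genes, and the remodellers Chd4, Chd7, Chd8 and Smarca4 take part in myelination.

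Libraries held between 8180927 and 16918122 counted reads, and the lowest count of any of these genes in any library was 27. Levels are given as CPM, read counts relative to the library total after scaling by the trimmed mean of M values (TMM). A level worth 3 counts was between 0.198 and 0.375 CPM. The Schwann cell gene Sox10 was at 152 to 372 CPM in allSC, 124 to 337 CPM in mSC and 207 to 326 CPM in nmSC, and the myelin gene Mbp was higher in mSC than in nmSC, by a log2 fold change of 3.20. All 8 genes of a proliferation list (Mki67, Top2a, Pcna, Mcm2, Mcm5, Ccnb1, Cdk1 and Birc5) were lower in mSC, and their summed level was between 148 and 215 CPM in mSC, 679 and 743 CPM in allSC and 1069 and 1315 CPM in nmSC. Summed markers of endothelial cells were at 12.8 to 15.5 CPM in allSC, 19.7 to 28.5 CPM in mSC and 6.07 to 11.5 CPM in nmSC, most of it Kdr (log2 fold change 1.80 in mSC against nmSC), while Pecam1 was lower in mSC (-0.95) and Cdh5 had -1.20 and was not called. Those of immune cells were at 10.9 to 12.9 CPM in allSC, 5.74 to 8.24 CPM in mSC and 8.75 to 17.5 CPM in nmSC, those of mural cells at 3.73 to 8.84 CPM in allSC, 3.39 to 6.99 CPM in mSC and 5.91 to 6.73 CPM in nmSC and those of neurons at 11.3 to 14.5 CPM in allSC, 12.6 to 18.4 CPM in mSC and 9.43 to 14.2 CPM in nmSC. The fibroblast-like list summed to 2048 to 2471 CPM in allSC, 423 to 1032 CPM in mSC and 2925 to 4107 CPM in nmSC, nearly all of it Col1a1, while its defining marker Pdgfra was at 1.68 to 3.15, 1.71 to 3.60 and 1.39 to 3.37 CPM in these gates. Aif1, a macrophage marker, had no read in any mSC library, but it had at most 5 reads in any library and was not tested. The immune marker Ptprc was at 4.44 to 6.73 CPM in mSC. The part of dividing cells or of other cells in the results below was not tested, and in bulk RNA a smaller share of cells that transcribe a gene and less RNA per cell cannot be told apart. Replicate 4 of mSC stood apart from its gate over all genes and not in a few alone. The chi-square per degree of freedom measures how far the counts of 2 libraries differ. It was 95.68, 50.58 and 53.45 for replicate 4 against mSC replicates 1, 2 and 3, and 6.0 to 22.1 between the other mSC libraries. The TMM factor of replicate 4 was 0.744 against 0.826 to 0.871 in the other mSC libraries.

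For 29 of the 45 chromatin regulators no difference was called between the mSC and nmSC gates, and the larger differences included pairs of related genes that moved in opposite directions. Between mSC and nmSC, 6 of the 45 genes were higher in mSC (13.3%, against 20.4% of all 18597 genes tested) and 10 were lower (22.2%, against 20.2%), at an adjusted p under 0.05 in the quasi-likelihood test of edgeR (Benjamini-Hochberg). The shares called were thus near or under those of all genes. In either direction, 7540 of the 18597 genes tested were called. The classes below hold 3 to 8 genes, too few to be compared with that share. The higher genes were Ezh1, Hdac3, Hdac5, Hdac8, Hdac11 and Dnmt3a, and the lower ones Ezh2, Hdac1, Hdac4, Hdac7, Hdac9, Chd7, Mbd3, Smarca2, Dnmt1 and Dnmt3b. Of these 16, 7 changed at least 2-fold (Ezh1, Hdac4, Hdac5, Hdac7, Hdac11, Dnmt1 and Dnmt3b), 15.6% of the 45, against 21.4% of all genes tested that were called and changed this much. The median log2 fold change was -0.12 over the 45 genes and -0.16 over all genes tested. The 29 genes not called had log2 fold changes between -0.36 (Suz12) and 0.50 (Hdac6), and the 95% confidence interval of each lay within a 2-fold change in either direction. The split depended on scaling. With library size alone the median of all genes moved to -0.73. Of all 18597 genes tested, 1443 were then higher in mSC and 10421 lower. Of the 45 genes, 3 were higher (Ezh1, Hdac5 and Hdac11) and 34 lower. Measured from the median of all genes, Ezh1 stood at 1.17 and Ezh2 at -0.50 with TMM scaling. With library size alone they stood at 1.18 and -0.51. The 50 genes with the most reads in a library took 26.9% to 31.6% of reads in mSC and 17.9% to 18.9% in nmSC.

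**Figure D1:**
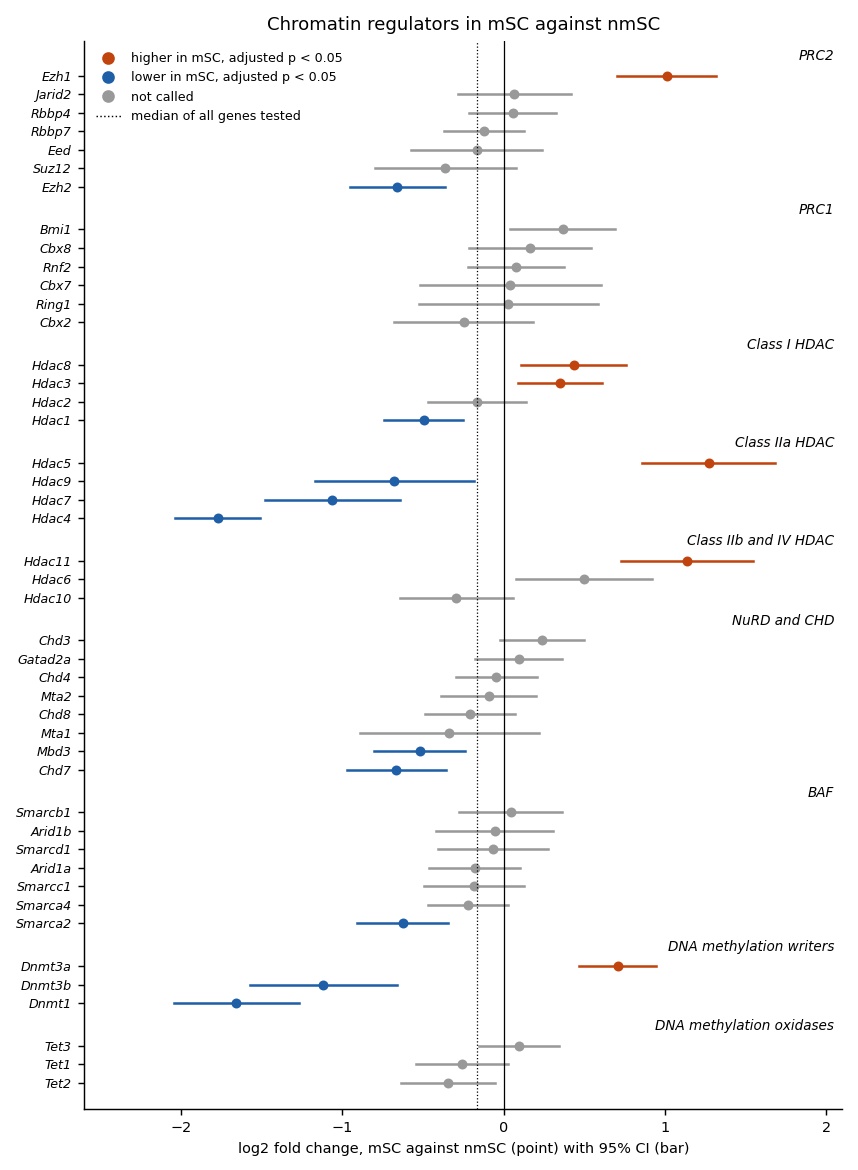
Log2 fold change of each of the 45 genes between mSC and nmSC (points) with its 95% confidence interval (bars), grouped by complex or class, with called genes in colour and the median of all genes tested (-0.16) as a dotted line. The changes of at least 2-fold, Hdac4, Dnmt1, Dnmt3b and Hdac7 downward and Hdac5, Hdac11 and Ezh1 upward, lie among the class IIa deacetylases, Hdac11, the DNA methylation writers and the Polycomb methyltransferases, while no gene of Polycomb complex 1 and no oxidase is coloured.

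Within Polycomb complex 2, the 2 methyltransferases differed between the gates in opposite directions, and the 5 other subunits measured were not called. The mSC libraries held 50.9, 45.7, 51.4 and 38.3 CPM of Ezh1, the nmSC libraries 18.6, 23.3, 22.7 and 27.9 CPM and the allSC libraries 41.7, 33.6, 36.7 and 34.7 CPM. All 4 mSC libraries were above all 4 nmSC libraries, and the log2 fold change was 1.01 ± 0.15 (SE, adjusted p = 1.79e-05). Ezh2, the methyltransferase that is typically highest in dividing cells, had the opposite order. For Ezh2, the levels were 70.5, 71.2, 63.4 and 70.5 CPM in nmSC, 36.1, 40.6, 40.9 and 57.3 CPM in mSC and 49.7, 55.2, 56.5 and 50.1 CPM in allSC. The mSC and nmSC gates did not overlap, though replicate 4 of mSC was well above the other mSC libraries, and the log2 fold change was -0.66 ± 0.14 (SE, adjusted p = 9.52e-04). Eed, the subunit that reads the methyl mark, was not called. Levels of Eed were 15.6, 20.9, 18.3 and 28.8 CPM in mSC, 16.7, 24.9, 25.7 and 28.6 CPM in allSC and 24, 25, 18.8 and 25.4 CPM in nmSC. The gates overlapped, and the log2 fold change was -0.17 ± 0.19 (SE, adjusted p = 0.498). Suz12, the scaffold subunit, had a log2 fold change of -0.36 ± 0.21 (SE, adjusted p = 0.169), the histone-binding Rbbp4 and Rbbp7 had 0.06 and -0.12, and the accessory subunit Jarid2 had 0.07. Without nmSC replicate 3, its lowest nmSC library at 9.20 CPM, Suz12 was called as lower in mSC (log2 fold change -0.55, adjusted p = 0.0162).

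The start-site windows of the 2 methyltransferase genes are shown because the genes changed in opposite directions, and those of Dnmt1, Dnmt3a, Hdac4 and Hdac5 below are shown for the same reason. Each window is 300 bases of the GRCm38.p6 build from RefSeq, from 250 bases before to 50 after the annotated start, 5′ to 3′ on the strand of the gene. Capitals mark matches to any of 4 E2F-type motifs, TTTCCCGC, TTTCGCGC, TTTGCCGC and TTTGGCGC, on either strand, which differ only in the pair of letters after TTT. E2F factors are known as regulators of genes used in DNA replication. The windows of Ezh1 (chr11:101226414-101226713, minus strand) and Ezh2 (chr6:47594981-47595280, minus strand) follow.
Ezh1: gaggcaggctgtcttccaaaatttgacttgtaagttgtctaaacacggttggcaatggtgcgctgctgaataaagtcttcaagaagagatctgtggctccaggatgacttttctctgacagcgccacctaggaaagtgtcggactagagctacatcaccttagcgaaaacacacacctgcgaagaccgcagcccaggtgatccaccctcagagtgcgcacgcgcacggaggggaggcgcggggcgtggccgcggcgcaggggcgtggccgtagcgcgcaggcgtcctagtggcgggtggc
Ezh2: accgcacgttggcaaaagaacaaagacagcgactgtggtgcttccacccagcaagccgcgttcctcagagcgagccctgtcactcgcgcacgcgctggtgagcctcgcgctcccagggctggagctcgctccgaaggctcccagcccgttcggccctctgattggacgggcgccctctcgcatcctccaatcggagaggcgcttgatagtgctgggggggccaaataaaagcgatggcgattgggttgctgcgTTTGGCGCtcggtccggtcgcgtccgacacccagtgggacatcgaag
The Ezh2 window held 1 match, which began 3 bases after the start, and the Ezh1 window held none. Windows were matched for 39 of the 45 genes, which have 51 windows in all, and 2.26% of the 32851 windows of all genes held a motif. Among the 45 genes the motif was found for Ezh2 and Dnmt1, which were lower in mSC, and for Suz12, Smarcd1 and Arid1a, which were not called, and for none of the 5 matched genes that were higher in mSC. A match is a description of the letters only, and these sets of genes are too small to be compared in it. The counts are of genes with a match in any window, while 2.26% is a share of windows. The windows of the 45 genes had a median of 27 CpG dinucleotides, against 7 over all windows.

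The ratio of Ezh1 to Ezh2 within a library does not depend on the scaling between libraries. The log2 ratio of their read counts was 0.10 ± 0.47 (SD, n = 4) in mSC, -1.59 ± 0.25 (SD, n = 4) in nmSC and -0.53 ± 0.20 (SD, n = 4) in allSC. The mSC and nmSC libraries did not overlap, so the ratio was higher in mSC however the libraries are paired. The difference was 1.69 ± 0.27 (SE). Corrected for exon length, Ezh1 stood at 0.965 of Ezh2 in mSC and 0.299 in nmSC (0.836 and 0.259 over the mean transcript length). The two-sided exact permutation test of 4 against 4 libraries gave p = 0.0286, the smallest value it can give, and 0.0686 after Benjamini-Hochberg adjustment over the 12 ratios tested. The same raw and adjusted values hold for the other 4 ratios described below (Hdac5/Hdac4, Dnmt3a/Dnmt1, Hdac1/Hdac2 and Smarca2/Smarca4), so that none of the 12 passed 0.05 after adjustment. With 0.0286 as the smallest p, passing was possible only if most of the 12 ratios reached it. The adjusted test therefore cannot decide on single ratios.

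None of the 6 genes of Polycomb complex 1 was called, where 7540 of all 18597 genes tested were. Rnf2, the main ubiquitin ligase of the complex, was at 97.1 ± 12.1 CPM (SD, n = 4) in mSC and 92 ± 18.3 CPM (SD, n = 4) in nmSC (log2 fold change 0.08 ± 0.14 SE, adjusted p = 0.677). Bmi1, which activates the ligase, came closest, at 31.8 to 39 CPM in mSC and 22.4 to 36.7 CPM in nmSC, and its log2 fold change was 0.37 ± 0.16 (SE, adjusted p = 0.0686). With the replicate block, which compares the gates within each subject number of the labels, Bmi1 was called with a log2 fold change of 0.39 and an adjusted p of 0.0470. Bmi1 was also called with the size factors of DESeq2 (adjusted p = 0.0351), with its Wald test (0.0260) and without mSC replicate 1 (0.0492). Without nmSC replicate 4, its highest nmSC library, the log2 fold change was 0.57 (adjusted p = 0.00373). The other alternatives did not call Bmi1. Library size alone called Rnf2 and Cbx2 as lower in mSC. Ring1, the second ligase, and the readers Cbx2, Cbx7 and Cbx8 had log2 fold changes of 0.03, -0.25, 0.04 and 0.16.

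The class I deacetylases, nuclear enzymes of the corepressor complexes, differed by 1.41-fold or less. Hdac1 was at 84.8, 99.5, 99.5 and 116 CPM in the 4 mSC libraries, 135, 142, 149.8 and 137 CPM in the nmSC libraries and 122, 128, 122 and 122 CPM in the allSC libraries. All mSC libraries were below all nmSC libraries, with a log2 fold change of -0.50 ± 0.12 (SE, adjusted p = 0.00214). Hdac2, which can stand in for Hdac1 in many cells, was not called. The mSC libraries held 154, 194, 188 and 221 CPM of Hdac2, the nmSC libraries 178, 225, 199 and 247 CPM and the allSC libraries 166, 189, 236 and 206 CPM. The gates overlapped, and the log2 fold change was -0.17 ± 0.14 (SE, adjusted p = 0.362). The log2 ratio of Hdac1 to Hdac2 was -0.92 ± 0.04 (SD, n = 4) in mSC and -0.58 ± 0.22 (SD, n = 4) in nmSC. The mSC and nmSC libraries did not overlap in this ratio, with a difference of -0.34 ± 0.11 (SE). Hdac3, the catalytic subunit of the NCoR and SMRT corepressors, was called in the other direction. For Hdac3, the levels were 98.7, 119, 139 and 122 CPM in nmSC, 158, 137, 145 and 169 CPM in mSC and 147, 128, 142 and 145 CPM in allSC. The highest nmSC library was above the lowest mSC library, and the log2 fold change was 0.35 ± 0.12 (SE, adjusted p = 0.0316) with TMM scaling but -0.22 with library size alone. Hdac8, which also acts on cohesin, was at 16.2 to 20.6 CPM in mSC and 13.4 to 14.3 CPM in nmSC, and its log2 fold change was 0.43 ± 0.16 (SE, adjusted p = 0.0324), which turned to -0.13 with library size alone. Both calls also lay near the threshold and were lost when any 1 of several libraries was left out. The log2 fold changes were then 0.27 to 0.35 for Hdac3 and 0.39 to 0.45 for Hdac8. Hdac3 had adjusted p values of 0.0509, 0.0979 and 0.0685 without mSC replicate 1, nmSC replicate 1 and nmSC replicate 2, and Hdac8 had 0.0736, 0.0531, 0.0730, 0.0526 and 0.0518 without mSC replicates 2 and 4 and nmSC replicates 2, 3 and 4.

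All 4 class IIa deacetylases were called, 3 lower in mSC and 1 higher, where 7540 of all 18597 genes tested were called. These enzymes have little deacetylase activity of their own, shuttle between cytoplasm and nucleus, and recruit corepressors to transcription factors such as Mef2. Levels of Hdac4 were 45.5, 39.6, 36.1 and 31.2 CPM in mSC, 82.9, 90.4, 77 and 82.9 CPM in allSC and 132, 130.4, 124 and 136 CPM in nmSC. The lowest nmSC library was above every library of the other gates and the highest mSC library was below them, so the 3 gates did not overlap, and mSC differed from nmSC by a log2 fold change of -1.77 ± 0.13 (SE, adjusted p = 1.62e-09), a 3.42-fold difference. Hdac5, of the same class, had the opposite order. Hdac5 was at 33, 30.3, 36.8 and 17.5 CPM in the 4 mSC libraries, 12.5, 13.2, 13.4 and 9.96 CPM in the nmSC libraries and 23.1, 17.2, 20.7 and 25.5 CPM in the allSC libraries. The gates mSC and nmSC did not overlap, replicate 4 of mSC was the lowest of its gate, and the log2 fold change was 1.27 ± 0.20 (SE, adjusted p = 4.17e-05). Hdac7 was measured at lower levels. The mSC libraries held 5.91, 6.52, 5.67 and 8.74 CPM of Hdac7, the nmSC libraries 14.3, 11.8, 17.5 and 12 CPM and the allSC libraries 7.65, 9.11, 12.2 and 9.06 CPM. Every nmSC library was above every mSC library, and the log2 fold change was -1.06 ± 0.20 (SE, adjusted p = 2.91e-04). Hdac9, at 3.04 to 5.24 CPM in mSC and 5.53 to 8.86 CPM in nmSC, had a log2 fold change of -0.68 ± 0.24 (SE, adjusted p = 0.0282). The adjusted p of Hdac9 rose to 0.104 without mSC replicate 2, 0.0823 without mSC replicate 3, 0.119 without nmSC replicate 2 and 0.0562 without nmSC replicate 4.

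The ratio of Hdac5 to Hdac4 had the largest difference of the 12 ratios. The log2 ratio was -0.46, -0.39, 0.03 and -0.83 in the mSC libraries, -3.40, -3.30, -3.20 and -3.77 in the nmSC libraries and -1.84, -2.40, -1.89 and -1.70 in the allSC libraries. The 3 gates did not overlap. The difference between mSC and nmSC was 3.00 ± 0.22 (SE), 8.02-fold. Per kilobase of exon, Hdac5 stood at 1.35 of Hdac4 in mSC and 0.169 in nmSC, and over the mean transcript length at 0.947 and 0.118, so that their order in mSC depended on the length used. The windows of Hdac4 (chr1:92180292-92180591, minus strand) and Hdac5 (chr11:102230123-102230422, minus strand) held none of the 4 motifs.
Hdac4: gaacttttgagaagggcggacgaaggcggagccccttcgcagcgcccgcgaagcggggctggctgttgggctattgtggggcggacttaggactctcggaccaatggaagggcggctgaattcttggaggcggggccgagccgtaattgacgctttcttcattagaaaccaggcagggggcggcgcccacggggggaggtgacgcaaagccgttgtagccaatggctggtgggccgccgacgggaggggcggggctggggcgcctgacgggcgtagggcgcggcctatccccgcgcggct
Hdac5: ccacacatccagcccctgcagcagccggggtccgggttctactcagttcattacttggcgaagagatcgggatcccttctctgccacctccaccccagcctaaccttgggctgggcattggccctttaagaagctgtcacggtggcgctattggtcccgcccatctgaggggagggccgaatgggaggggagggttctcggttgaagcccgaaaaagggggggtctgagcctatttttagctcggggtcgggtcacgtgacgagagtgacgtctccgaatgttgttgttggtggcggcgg

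**Figure D2:**
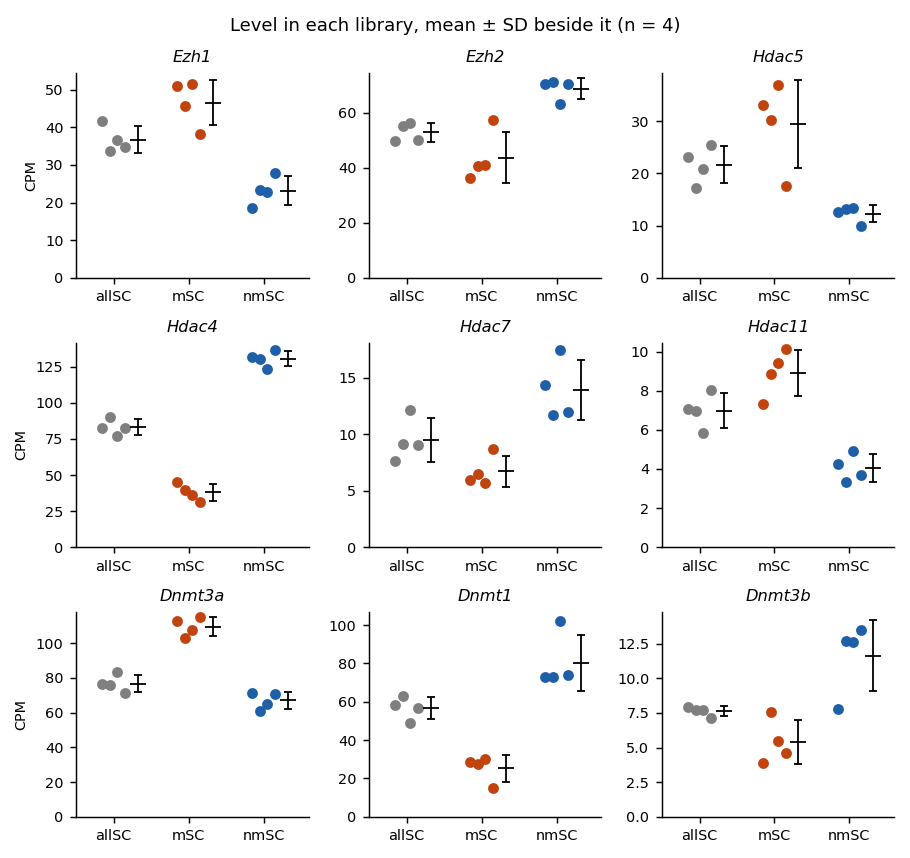
TMM-scaled level in CPM of 9 genes in each library of the allSC, mSC and nmSC gates (points), with the mean ± SD of the 4 libraries as a bar beside them and axes that start at 0. Ezh1, Hdac5, Hdac11 and Dnmt3a are highest in mSC, while Ezh2, Hdac4, Hdac7, Dnmt1 and Dnmt3b are highest in nmSC, and the allSC mean lies between the others for each of the 9.

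Of the other deacetylases, Hdac11, the sole class IV enzyme, known to remove fatty acyl groups, was higher in mSC. For Hdac11, the levels were 4.23, 3.32, 4.94 and 3.69 CPM in nmSC, 7.34, 8.87, 9.40 and 10.1 CPM in mSC and 7.07, 6.97, 5.86 and 8.06 CPM in allSC. The mSC and nmSC gates did not overlap, and the log2 fold change was 1.14 ± 0.20 (SE, adjusted p = 1.16e-04), from a low level. Hdac6, which deacetylates tubulin in the cytoplasm, was at 45.8, 44.6, 46.5 and 21.4 CPM in the mSC libraries and 21.7, 26.2, 33.4 and 31.1 CPM in the nmSC libraries. Replicate 4 was far below the other mSC libraries and level with the lowest nmSC library. Its log2 fold change was 0.50 ± 0.20 (SE, adjusted p = 0.0569), and without mSC replicate 4 it was 0.70 with an adjusted p of 4.25e-04. Hdac10, a polyamine deacetylase, was not called (-0.30 ± 0.17 SE, adjusted p = 0.164).

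Of the NuRD and CHD genes, Chd7 and Mbd3 were lower in mSC and 6 were not called. Chd4, the main ATPase of NuRD, was not called. Levels of Chd4 were 159.7, 143, 166 and 136 CPM in mSC, 143, 129.8, 134 and 157 CPM in allSC and 158, 135, 172 and 159 CPM in nmSC. The gates overlapped, and the log2 fold change was -0.05 ± 0.12 (SE, adjusted p = 0.776), with a 95% confidence interval of -0.30 to 0.20. Chd7, a remodeller that acts at enhancers, was lower in mSC. Chd7 was at 15, 14.8, 15.3 and 18.4 CPM in the 4 mSC libraries, 27.1, 24.7, 22.4 and 26.2 CPM in the nmSC libraries and 14.5, 16.7, 20.1 and 19.5 CPM in the allSC libraries. The mSC and nmSC gates did not overlap, and the log2 fold change was -0.67 ± 0.15 (SE, adjusted p = 0.00127). Chd8, a relative of Chd7, had a log2 fold change of -0.21 ± 0.13 (SE, adjusted p = 0.215). The mSC libraries held 43.8, 36.4, 37.1 and 33.8 CPM of Chd8, the nmSC libraries 44.3, 35.4, 46.1 and 48.8 CPM and the allSC libraries 40.4, 37.8, 39 and 41.9 CPM. The gates mSC and nmSC overlapped. Mbd3, which links NuRD to chromatin, was at 40.5 to 61.7 CPM in mSC and 65.5 to 81.1 CPM in nmSC, and its log2 fold change was -0.52 ± 0.13 (SE, adjusted p = 0.00468). The alternative ATPase Chd3 had 0.24 ± 0.12 (SE, adjusted p = 0.130), and the subunits Mta1, Mta2 and Gatad2a had log2 fold changes of -0.34, -0.09 and 0.09.

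In the BAF complex the alternative ATPase Smarca2 (Brm) was lower in mSC and 6 genes were not called. For Smarca2, the levels were 39.4, 30.5, 34.9 and 35.8 CPM in nmSC, 21.8, 23.7, 25.9 and 19.5 CPM in mSC and 30.5, 27.1, 30.0 and 25.4 CPM in allSC. All mSC libraries were below all nmSC libraries, and the log2 fold change was -0.63 ± 0.14 (SE, adjusted p = 0.00109). Smarca4 (Brg1), the ATPase that works with Sox10, was not called. Levels of Smarca4 were 100.5, 105, 101 and 86 CPM in mSC, 114, 113, 95.7 and 114 CPM in allSC and 109, 112, 129 and 107 CPM in nmSC. All mSC libraries were below all nmSC libraries, but the difference was 1.17-fold, and the log2 fold change was -0.22 ± 0.12 (SE, adjusted p = 0.142). The log2 ratio of Smarca2 to Smarca4 was -2.11 ± 0.11 (SD, n = 4) in mSC and -1.70 ± 0.21 (SD, n = 4) in nmSC. The mSC and nmSC libraries did not overlap in this ratio, with a difference of -0.41 ± 0.12 (SE). The core subunits Smarcb1, Smarcc1 and Smarcd1 and the DNA-binding Arid1a and Arid1b had log2 fold changes of 0.04, -0.18, -0.07, -0.18 and -0.06. Without mSC replicate 4, Arid1a was called as lower in mSC (log2 fold change -0.31, adjusted p = 0.0360).

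All 3 writers of DNA methylation were called, where 7540 of all 18597 genes tested were. Dnmt1, which copies methylation to the new strand during replication, was lower in mSC. Dnmt1 was at 28.6, 27.5, 30.4 and 14.9 CPM in the 4 mSC libraries, 72.7, 72.8, 102 and 73.9 CPM in the nmSC libraries and 58.1, 63.1, 48.9 and 56.5 CPM in the allSC libraries. The 3 gates did not overlap, replicate 4 was the lowest of mSC, and the log2 fold change was -1.66 ± 0.18 (SE, adjusted p = 7.47e-07), a 3.16-fold difference. The de novo methyltransferase Dnmt3b was also lower. The mSC libraries held 3.87, 7.57, 5.44 and 4.62 CPM of Dnmt3b, the nmSC libraries 7.79, 12.7, 12.6 and 13.5 CPM and the allSC libraries 7.94, 7.70, 7.71 and 7.15 CPM. The gates mSC and nmSC did not overlap, by a narrow margin, and the log2 fold change was -1.12 ± 0.22 (SE, adjusted p = 4.02e-04). Dnmt3a, the de novo methyltransferase prominent in differentiated cells, was higher in mSC. For Dnmt3a, the levels were 71.4, 61.1, 65 and 70.9 CPM in nmSC, 113, 103, 108 and 115 CPM in mSC and 76.3, 75.9, 83.4 and 71.1 CPM in allSC. All mSC libraries were above all others, and the log2 fold change was 0.71 ± 0.11 (SE, adjusted p = 5.60e-05) with TMM scaling and 0.14 with library size alone, where it was not called.

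The log2 ratio of Dnmt3a to Dnmt1 was 1.98, 1.90, 1.82 and 2.95 in the mSC libraries, -0.03, -0.25, -0.65 and -0.06 in the nmSC libraries and 0.39, 0.27, 0.77 and 0.33 in the allSC libraries. The 3 gates did not overlap, and the difference between mSC and nmSC was 2.41 ± 0.30 (SE). Per kilobase of exon, Dnmt3a stood at 1.98 times Dnmt1 in mSC and 0.373 in nmSC, but over the mean transcript length it stood at 6.77 and 1.27, so that the order of the genes in nmSC depended on the length used. One window of Dnmt1 is shown (chr9:20952574-20952873, minus strand), the one of its 3 annotated windows that held a motif, with 2 matches, and one of the 3 windows of Dnmt3a (chr12:3806730-3807029, plus strand), none of which held any. The counts do not tell which start was used.
Dnmt1: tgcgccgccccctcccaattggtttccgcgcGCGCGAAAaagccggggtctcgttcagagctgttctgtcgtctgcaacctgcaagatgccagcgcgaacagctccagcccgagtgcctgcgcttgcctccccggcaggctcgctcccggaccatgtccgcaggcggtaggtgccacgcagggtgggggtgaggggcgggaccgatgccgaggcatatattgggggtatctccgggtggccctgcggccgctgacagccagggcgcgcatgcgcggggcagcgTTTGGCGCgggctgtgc
Dnmt3a: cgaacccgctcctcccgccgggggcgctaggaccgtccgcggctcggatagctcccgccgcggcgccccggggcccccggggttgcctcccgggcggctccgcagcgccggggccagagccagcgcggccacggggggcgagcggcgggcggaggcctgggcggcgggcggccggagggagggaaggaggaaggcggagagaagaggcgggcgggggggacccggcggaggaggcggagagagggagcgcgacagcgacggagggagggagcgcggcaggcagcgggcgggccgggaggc

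None of the 3 methylcytosine oxidases was called, where 7540 of all 18597 genes tested were. Tet2 came closest, at 44.7 to 67.1 CPM in mSC and 61.6 to 75.7 CPM in nmSC, and its log2 fold change was -0.35 ± 0.14 (SE, adjusted p = 0.0533). Tet2 was called as lower in mSC with a minimum of 1 CPM in 4 libraries (adjusted p = 0.0393) and in thinned libraries (0.0466). Without mSC replicate 1 the log2 fold change of Tet2 was -0.48 (adjusted p = 0.00698). Library size alone called Tet1, Tet2 and Tet3 as lower. Tet1 and Tet3 had log2 fold changes of -0.26 and 0.09 with TMM scaling. The log2 ratio of Tet2 to Tet3 differed by -0.45 ± 0.15 (SE), with overlapping gates and an adjusted p of 0.114 in the permutation test. The other ratios (Rbbp7/Rbbp4, Ring1/Rnf2, Cbx7/Cbx2, Chd3/Chd4, Mta1/Mta2 and Arid1b/Arid1a) differed by between -0.18 (Mta1/Mta2) and 0.29 (Chd3/Chd4), all with overlapping gates.

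**Figure D3:**
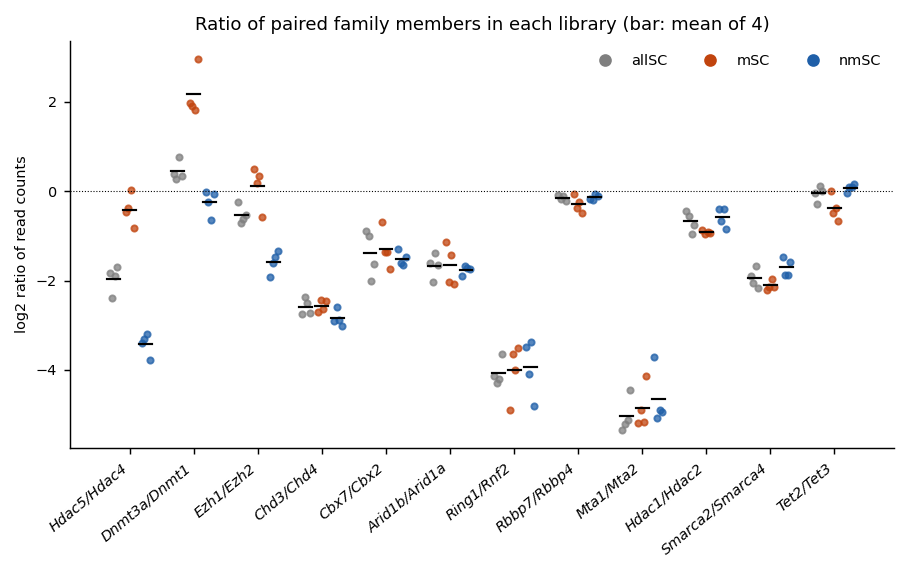
Log2 ratio of the read counts of 2 related genes in each library (points) by gate, with the mean of 4 libraries as a black bar, for the 12 ratios in order of their difference between mSC and nmSC. Hdac5/Hdac4, Dnmt3a/Dnmt1 and Ezh1/Ezh2 have their highest mean in mSC, their lowest in nmSC and the allSC mean in between, and the ratios from Chd3/Chd4 to Mta1/Mta2 overlap between mSC and nmSC.

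Levels between genes were compared per kilobase of exon (RPKM, from TMM-scaled CPM, mean of 12 libraries). Over the union of exons, the highest were Rbbp7 at 79.9 RPKM, Mta2 at 44.8 RPKM, Hdac2 at 44.7 RPKM, Hdac1 at 35.3 RPKM and Hdac3 at 33.9 RPKM, and the lowest was Hdac9 at 0.365 RPKM. Class I deacetylases other than Hdac8 were thus above all class IIa deacetylases in level, while log2 fold changes between mSC and nmSC reached -1.77 in class IIa and -0.50 in class I. Of the 2 BAF ATPases, Smarca4 was at 16.6 RPKM and Smarca2 at 2.01 RPKM over the union of exons, but at 19.5 and 19.6 RPKM over the mean transcript length, where they did not stand apart. Rnf2 at 23.5 RPKM was above Ring1 at 1.89 RPKM by either length.

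**Figure D4:**
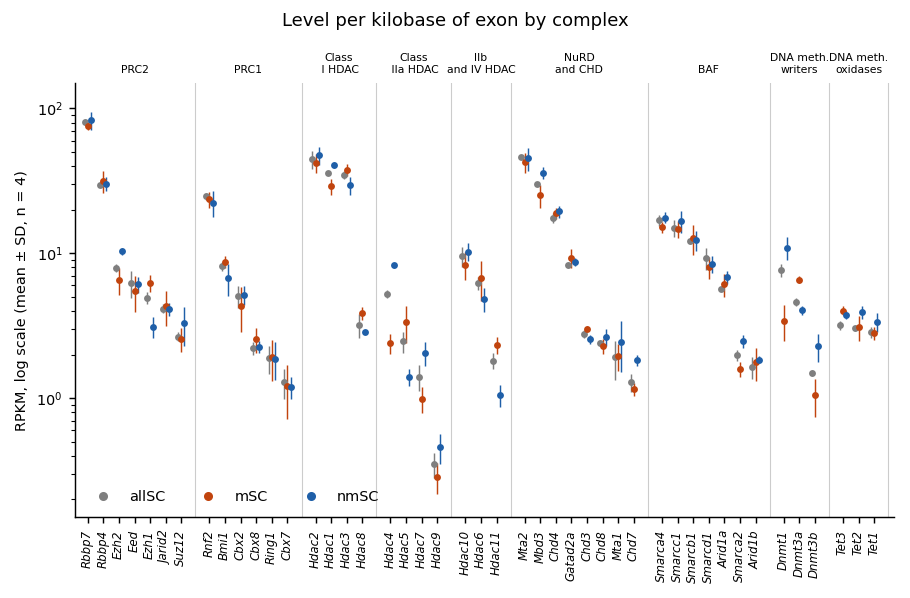
Level per kilobase of exon (RPKM, log axis) of the 45 genes by complex or class, as the mean ± SD of the 4 libraries of allSC, mSC and nmSC. Rbbp7, Mta2 and the class I deacetylases Hdac1, Hdac2 and Hdac3 are the highest, Hdac9 is the lowest, and the gates stand clearly apart in Hdac4 and Dnmt1.

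Against the allSC gate fewer genes were called. In mSC against allSC, Dnmt3a was higher (1 of 45, or 2.22%, against 8.76% of all genes tested), with a log2 fold change of 0.51 ± 0.11 (SE, adjusted p = 0.00355). Hdac4 and Dnmt1 were lower in mSC (2 of 45, or 4.44%, against 8.8%), with log2 fold changes of -1.13 ± 0.13 (SE, adjusted p = 3.03e-06) and -1.15 ± 0.19 (SE, adjusted p = 1.97e-04). In nmSC against allSC, Hdac4 and Chd7 were higher (4.44%, against 2.83% of all genes tested), with log2 fold changes of 0.65 ± 0.13 (SE, adjusted p = 0.00166) and 0.50 ± 0.14 (SE, adjusted p = 0.0302). Ezh1, Hdac5 and Hdac11 were lower in nmSC (6.67%, against 7.54%), with log2 fold changes of -0.66 ± 0.15 (SE, adjusted p = 0.00514), -0.82 ± 0.20 (SE, adjusted p = 0.0106) and -0.78 ± 0.20 (SE, adjusted p = 0.0125). These 2 comparisons share the allSC libraries. All 16 genes called between mSC and nmSC had an allSC mean between the means of the other gates, as did 96.4% of all genes called there, and 30 of all 45 genes did, against 69.5% of all genes tested. These calls depended on scaling, and library size alone also moved the median log2 fold change of all genes. The median went from -0.05 to -0.36 in mSC against allSC and from 0.04 to 0.30 in nmSC against allSC. With library size alone, Dnmt3a was no longer called in mSC against allSC (log2 fold change 0.20, adjusted p = 0.185). Nor were Ezh1, Hdac5 and Hdac11 in nmSC against allSC (adjusted p = 0.0756, 0.0937 and 0.0625). The counts were 0 higher and 15 lower in mSC, where 415 of all 18597 genes tested were higher and 3985 lower. They were 14 higher and 0 lower in nmSC, where 2207 of all genes tested were higher and 744 lower. Part of the counts changed when single libraries were left out. The call of Chd7 in nmSC was lost with no low-count filter (adjusted p = 0.0536), and also without allSC replicates 1, 2 or 4 or without nmSC replicates 1, 2 or 4 (adjusted p from 0.0505 to 0.131), and that of Hdac11 without allSC replicate 4 (0.0526) or nmSC replicate 2 (0.0513). Without mSC replicate 4, the genes higher in mSC against allSC were 3 (Dnmt3a, Ezh1 and Hdac5), the lower ones 6 (Hdac4, Dnmt1, Hdac1, Hdac7, Ezh2 and Mbd3), and the genes higher in nmSC against allSC 7. Of the 19369 genes then tested, 1965 were higher and 1581 lower in mSC against allSC, and 968 higher in nmSC against allSC.

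Of 100 further genes of the same pathways, 98 were tested, and 20 were higher and 25 lower in mSC than in nmSC, 20.4% and 25.5% of those tested, against 20.4% and 20.2% of all genes. Their median log2 fold change was -0.14. Of the partners of Polycomb complex 2, 1 was higher and 3 were lower of 7 tested, among them Phf19, a subunit that recruits the complex, at 1.48 to 3.62 CPM in mSC and 9.76 to 14.2 CPM in nmSC (log2 fold change -2.26 ± 0.24 SE, adjusted p = 3.23e-07). Phf1, a relative of Phf19, was higher (0.75), and Kdm6b, a demethylase of the same mark, was lower (-0.55). Of 18 partners of Polycomb complex 1, 5 were higher and 3 lower, led by the reader Cbx6 (0.97) and by Bcor (-0.84) and Pcgf5 (-0.78) of the variant complexes. Of 20 deacetylase corepressors and sirtuins, 5 were higher and 4 lower. Sirt2, a tubulin deacetylase abundant in myelinating glia, was at 468 to 753 CPM in mSC and 141 to 169.5 CPM in nmSC (log2 fold change 1.93 ± 0.13 SE, adjusted p = 9.74e-10), and the Sin3 subunits Sap30 (-1.11) and Sap18 (0.94) moved in opposite directions.

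Of 11 NuRD and CHD partners, 1 was higher and 2 lower. The higher one was Nab1, which binds Egr2 and recruits Chd4, at 55.5 to 65.2 CPM in mSC and 6.06 to 8.43 CPM in nmSC (log2 fold change 3.08 ± 0.15 SE, adjusted p = 9.43e-12). Chd5 (-1.41) and Gatad2b (-0.55) were lower, Chd5 at 3.56 CPM or less in every library. Of 19 BAF and PBAF partners tested, 4 were higher and 4 lower, led by the neuron-type subunits Dpf1 (1.97) and Dpf3 (-1.68), both at low levels, and by Bcl7a (-1.32). Of 12 ISWI and other remodellers, 2 were higher and 5 lower, among them Hells, a remodeller needed for DNA methylation, at 3.60 to 4.26 CPM in mSC and 12.5 to 19.6 CPM in nmSC (log2 fold change -2.01 ± 0.19 SE, adjusted p = 7.69e-08), Ino80 (-0.58) and Baz1b (-0.52). Of 11 DNA methylation partners, 2 were higher and 4 lower. Uhrf1, which brings Dnmt1 to newly replicated DNA, had the largest change of the 98 genes, at 4.74 to 11.2 CPM in mSC and 80.1 to 103 CPM in nmSC (log2 fold change -3.67 ± 0.20 SE, adjusted p = 5.32e-11). Gadd45b, linked to demethylation and stress, was higher (2.90), and the repair glycosylase Mbd4 was lower (-1.06). The E2F-type motif was found in windows of Uhrf1, Hells and Phf19 among the 21 matched partners that were lower in mSC, in none of the 18 matched partners that were higher, and for Brd7 and Sirt4 among the 39 matched partners that were not called. With a motif in 2.26% of the windows of all genes, these sets too are too small to be compared.

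Genes of the cell cycle were measured in the same libraries. Mki67, a marker of dividing cells, was at 14.8 to 25.8 CPM in mSC and 188 to 272 CPM in nmSC (log2 fold change -3.52 ± 0.16 SE, adjusted p = 6.48e-12), and Top2a, the topoisomerase of mitosis, had -3.53. Pcna, the clamp of the replication fork, had -0.41 ± 0.15 (SE, adjusted p = 0.0348). Its gates overlapped, and the adjusted p was 0.119 without nmSC replicate 2. Cdkn1c, a cell cycle inhibitor under Polycomb control in Schwann cells, was also lower in mSC (-2.73 ± 0.33 SE, adjusted p = 3.92e-06), while Egr2, the regulator of myelination, was higher (0.50 ± 0.14 SE, adjusted p = 0.00671). With library size alone, Egr2 had -0.06 and was not called (adjusted p = 0.725). The part of dividing cells in the levels of Ezh2, Dnmt1, Dnmt3b, Uhrf1 and Hells was not tested.

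Of the 45 genes, 19 share exon bases with another annotated gene, mostly on the other strand. They include Ezh2, Hdac4, Hdac5, Hdac7, Hdac11, Smarca2 and Dnmt3a among those that were called. The library kit does not mark strand, so reads of such a gene and its antisense neighbour cannot be told apart in the shared bases.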

How the data were processed

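Per the labels, the reads were demultiplexed with bcl2fastq, aligned with STAR 2.6.1c to GRCm38.p5 and counted on genes with featureCounts. The authors deposited raw counts of Smart-Seq2 libraries (full-length, PCR-amplified, without molecular identifiers) with no normalization. The methods name a human build while the gene identifiers are those of mouse, and the strand and multi-mapping options are not given in the sources used here. From these counts, 18597 of 25700 genes passed the expression filter of edgeR 4.0.16 (R 4.3.3), were scaled by TMM and were compared by its quasi-likelihood test. One fit held all 12 libraries, p values were adjusted by the method of Benjamini and Hochberg over all genes tested, and those under 0.05 were called. Standard errors and 95% intervals are Wald values of that model. Log2 ratios used counts + 0.5 and a two-sided exact permutation test. Symbols, positions and exon lengths came from GENCODE M21, which matched 25587 identifiers.

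The members and lists were chosen with earlier results of these data known. Values by library are given for members called at 2-fold or more, for both genes of each ratio described and for genes known from Schwann cell work, and partners are named by the 3 largest called changes of a list. The labels give libraries of different gates the same subject number, taken here as the same mouse for the replicate block, though deviations of libraries with the same number showed little correlation (-0.10 to 0.15). No 2 libraries of a gate were duplicates (chi-square per degree of freedom of at least 4.03). Each library is 1 mouse, and intervals cover counting and replicate error of these mice only. In simulated mSC against nmSC data (5 draws, 200 genes changed, 17876 genes tested on average), the test recovered 16.1% of genes changed 1.5-fold, 58.5% at 2-fold and 86.4% at 4-fold, with 4.42% false calls. The changed genes were drawn from genes of all levels. In the real data 7540 of 18597 genes were called, so the cutoff was stricter in the simulation. Alternatives were other size factors, library size alone, the Wald test of DESeq2 1.42.0, other filters, fits of 2 gates, a replicate block, thinned counts, another added count and leaving out each library.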

Additional observations from a re-analysis of the deposited data

Results flagged for a closer look

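Within the gates, 11 of 135 sets of 4 libraries of these genes and 2 of 36 sets of log2 ratios had 1 library far from the other 3 by Dixon's test, and chance flags about 1 in 20 such sets. In mSC replicate 4, Hdac6 was low at 21.4 CPM, while the rest of the gate was at 44.6 to 46.5 CPM, Chd7 was high at 18.4 CPM against 14.8 to 15.3 CPM, and the log2 ratio of Dnmt3a to Dnmt1 was high at 2.95 against 1.82 to 1.98. Smarcd1 was low in mSC replicate 1, at 23.9 CPM against 34.0 to 36.1 CPM.

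In nmSC, Ezh2 was low in replicate 3 at 63.4 CPM against 70.5 to 71.2 CPM, Dnmt1 was high in replicate 3 at 102 CPM against 72.7 to 73.9 CPM, and Dnmt3b was low in replicate 1 at 7.79 CPM against 12.6 to 13.5 CPM. Bmi1 was high in nmSC replicate 4 at 36.7 CPM against 22.4 to 24.5 CPM, and the log2 ratio of Mta1 to Mta2 was high in nmSC replicate 1 at -3.72 against -5.09 to -4.89. In allSC, Bmi1 was low in replicate 1 at 29.1 CPM against 33.4 to 33.7 CPM, Ring1 was high in replicate 4 at 8.06 CPM against 5.39 to 5.56 CPM, Hdac1 was high in replicate 2 at 128 CPM against about 122 CPM in the others, and Smarca4 was low in replicate 3 at 95.7 CPM against 113 to 114 CPM. Of the 16 genes called between mSC and nmSC, none of those with a library set apart here (Ezh2, Hdac1, Chd7, Dnmt1 and Dnmt3b) lost its call when that or any other library was left out.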

How the results depend on the processing

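All 16 calls between mSC and nmSC remained under the size factors or the Wald test of DESeq2, with no low-count filter, with a minimum of 1 CPM and with the replicate block, and those called again under the other alternatives kept their direction. Fits of only the 2 gates compared lost Hdac3, and thinned counts lost Hdac8 and Hdac9. Calls were also gained. Bmi1 and Hdac6 were called with DESeq2's size factors, and both of them and Chd3 with its Wald test. Hdac6 was called with no low-count filter, Tet2 with a minimum of 1 CPM and in thinned counts, and Bmi1 with the replicate block. Library size alone gave 3 higher and 34 lower in mSC against nmSC, 0 and 15 in mSC against allSC, and 14 and 0 in nmSC against allSC. Among all 18597 genes tested it gave 1443 and 10421, 415 and 3985, and 2207 and 744 in these comparisons. It also moved the median of all genes from -0.16 to -0.73 in mSC against nmSC. It turned the log2 fold changes of mSC against nmSC in Rbbp4 to -0.52, Jarid2 to -0.48, Bmi1 to -0.20, Ring1 to -0.55, Rnf2 to -0.48, Cbx7 to -0.50, Cbx8 to -0.41, Hdac3 to -0.22, Hdac8 to -0.13, Hdac6 to -0.043, Chd3 to -0.33, Gatad2a to -0.47, Smarcb1 to -0.54 and Tet3 to -0.48. The reversed genes other than Hdac3 and Hdac8 were not called with TMM scaling.

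Near 0, DESeq2's size factors and its Wald test turned Chd4 to 0.019 and 0.042, Smarcd1 to 0.0014 and 0.024, and Arid1b to 0.0065 and 0.029. Cbx7 was -0.011 with the replicate block and -0.019 in thinned libraries. The replicate block gave 7 genes higher and 10 lower in mSC against nmSC, and changed only the call of Bmi1 there. Of all 18597 genes tested, 3626 were higher and 3547 lower with the block. In mSC against allSC, the count of higher genes was 2 with DESeq2's size factors and 3 with its Wald test, and that of lower genes was 4 in thinned libraries. Over all genes, 2093 of 18597 and 2516 of 25700 were higher in the first 2 settings. In thinned libraries 1529 of 16546 were lower. In nmSC against allSC, the count of higher genes was 1 with no low-count filter and 8 with only the 2 gates compared. Over all genes tested, 437 of 25196 and 1149 of 18137 were higher in these 2 settings.

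Leaving out single libraries gave 4 to 6 higher and 9 to 11 lower genes in mSC against nmSC, 1 to 3 and 2 to 6 in mSC against allSC, and 1 to 7 and 2 to 4 in nmSC against allSC. Log2 fold changes that crossed 0 ranged over -0.22 to 0.081 for Arid1b, -0.094 to 0.28 for Cbx7, -0.11 to 0.011 for Chd4, -0.072 to 0.22 for Jarid2, -0.17 to 0.038 for Mta2, -0.056 to 0.15 for Rbbp4, -0.14 to 0.24 for Ring1, -0.0034 to 0.23 for Rnf2, -0.12 to 0.15 for Smarcb1 and -0.13 to 0.074 for Smarcd1. Log2 ratios that did so ranged over -0.083 to 0.23 for Arid1b/Arid1a, -0.42 to 0.13 for Mta1/Mta2 and -0.36 to 0.22 for Ring1/Rnf2. The paired form of the ratio test and its fits without a library cannot reach 0.05 (their smallest p values are 0.125 and 0.0571), so ratios were compared by value. Adding 5 counts turned no ratio and moved none past 0.05, which the smallest p allows only if most of the 12 ratios reach it. The cause of these changes was not tested. The depth limits what can be said of genes near Hdac9 in level. In simulated data, with changed genes drawn from all levels and a stricter cutoff, changes of 1.5-fold were mostly missed. That share was not measured for the 45 genes, of which Hdac1, Hdac3, Hdac8 and Mbd3 were called at smaller changes.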
